A study of Homo sapiens with 4 samples.

Results

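The 43 genes described here encode the proteins that license replication origins and the replisome that copies DNA at the fork. They were taken from a fixed list of gene symbols and make up 43 of the 17640 genes that had a read over an annotated splice junction in chromatin-bound RNA of K562 cells. All 43 had such reads in every library, and 42 had enough for the test over 10827 genes. GINS3, a GINS subunit, did not, with 10 and 8 reads in SF3B1 K700E and 5 and 7 in wild type.

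The genotypes compared in K562, a human erythroleukemia line were SF3B1 K700E and wild type, with 2 libraries each. SF3B1 is the U2 snRNP subunit that helps to choose the branch point and 3′ splice site, and K700E is its most common substitution in myeloid disease. The labels give 1 treatment text for all libraries, in which doxycycline at 1 µg/ml switched on the modified allele and cells were collected at 4 days. They do not say whether wild-type cells also carried an inducible allele, whether a line is 1 clone, or whether the replicates came from different cultures. The p-values below thus rest on library-to-library spread, which may be technical. RNA was taken from chromatin in buffers with 25 µM α-amanitin, an inhibitor of RNA polymerase II, and depleted of polyadenylated RNA 3 times and then of ribosomal RNA. The counts are therefore spliced reads still attached to chromatin, and fewer transcripts per cell cannot be told apart from fewer cells making them.

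In a dividing cell, the origin recognition complex binds DNA and, with CDC6 and CDT1, loads the MCM2-7 helicase ring before S phase, while geminin blocks CDT1 afterwards. The CDC7-DBF4 kinase and firing factors then attach CDC45 and GINS to the ring, which makes the active helicase. Polymerase alpha-primase starts each strand, polymerases epsilon and delta extend them with the PCNA clamp and its RFC loader, and FEN1 and LIG1 join the lagging-strand fragments.

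Uniquely mapped junction reads numbered 4297393 and 5313934 in SF3B1 K700E, against 3576184 and 3680968 in wild type. SF3B1 itself had 845 and 702 CPM (spliced reads per 1000000 counted, TMM-scaled) in SF3B1 K700E, against 897 and 1016 CPM in wild type, with an edgeR adjusted p of 0.747. Junction counts hold no base calls, so the allele was not read. The labels call the cells epithelial. All 12 erythroid markers had a read in at least 1 library and their summed level was 1429 and 2159 CPM in SF3B1 K700E, against 1629 and 2092 CPM in wild type. Of 10 epithelial markers, KRT5, CDH1 and ESRP1 were at 0, while KRT8 and KRT18 were the main part of a summed 350 and 444 CPM in SF3B1 K700E, against 486 and 374 CPM in wild type. Among the other lineages, PTPRC had 1767 and 1530 CPM in SF3B1 K700E, against 899 and 1200 CPM in wild type (edgeR adjusted p 0.315), and of 6 myeloid markers MPO, CD14 and ELANE were at 0. The myeloid list summed to 84.8 and 115 CPM in SF3B1 K700E, against 117.4 and 117.5 CPM in wild type, mostly ITGAM with 64.1 and 95.9 CPM in SF3B1 K700E, against 85.6 and 97.1 CPM in wild type. The megakaryocyte marker ITGA2B had 145 and 612 CPM in SF3B1 K700E, against 414 and 150 CPM in wild type. The part of these differences in the results below was not tested.

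None of the 42 members passed the test at 0.05 (edgeR's quasi-likelihood test, Benjamini-Hochberg adjusted), and 0 members had an unadjusted p under 0.05 in edgeR, DESeq2 or limma voom, where 10.1% of all genes did in edgeR. Over all genes tested, 36 were called higher and 65 lower, or 0.933%. The median log2 change of the 42 members was 0.02, against 0.00 over all genes, and the members ran from -0.56 to 0.61. In 36 members the genotypes overlapped, ORC2 was higher in both SF3B1 K700E libraries, and GINS2, CDT1, CDC6, ORC6 and POLE were lower in both. Over all genes 19.4% were above and 20.1% below in this way, so the members' counts of 1 and 5 in 42 lie under the background. Together the members took 0.690% and 0.583% of single-gene junction reads in SF3B1 K700E, against 0.652% and 0.613% in wild type (exact permutation p 1, 2-sided, n = 2 each). With 2 against 2 libraries that test cannot go below 0.333.

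**Figure D1:**
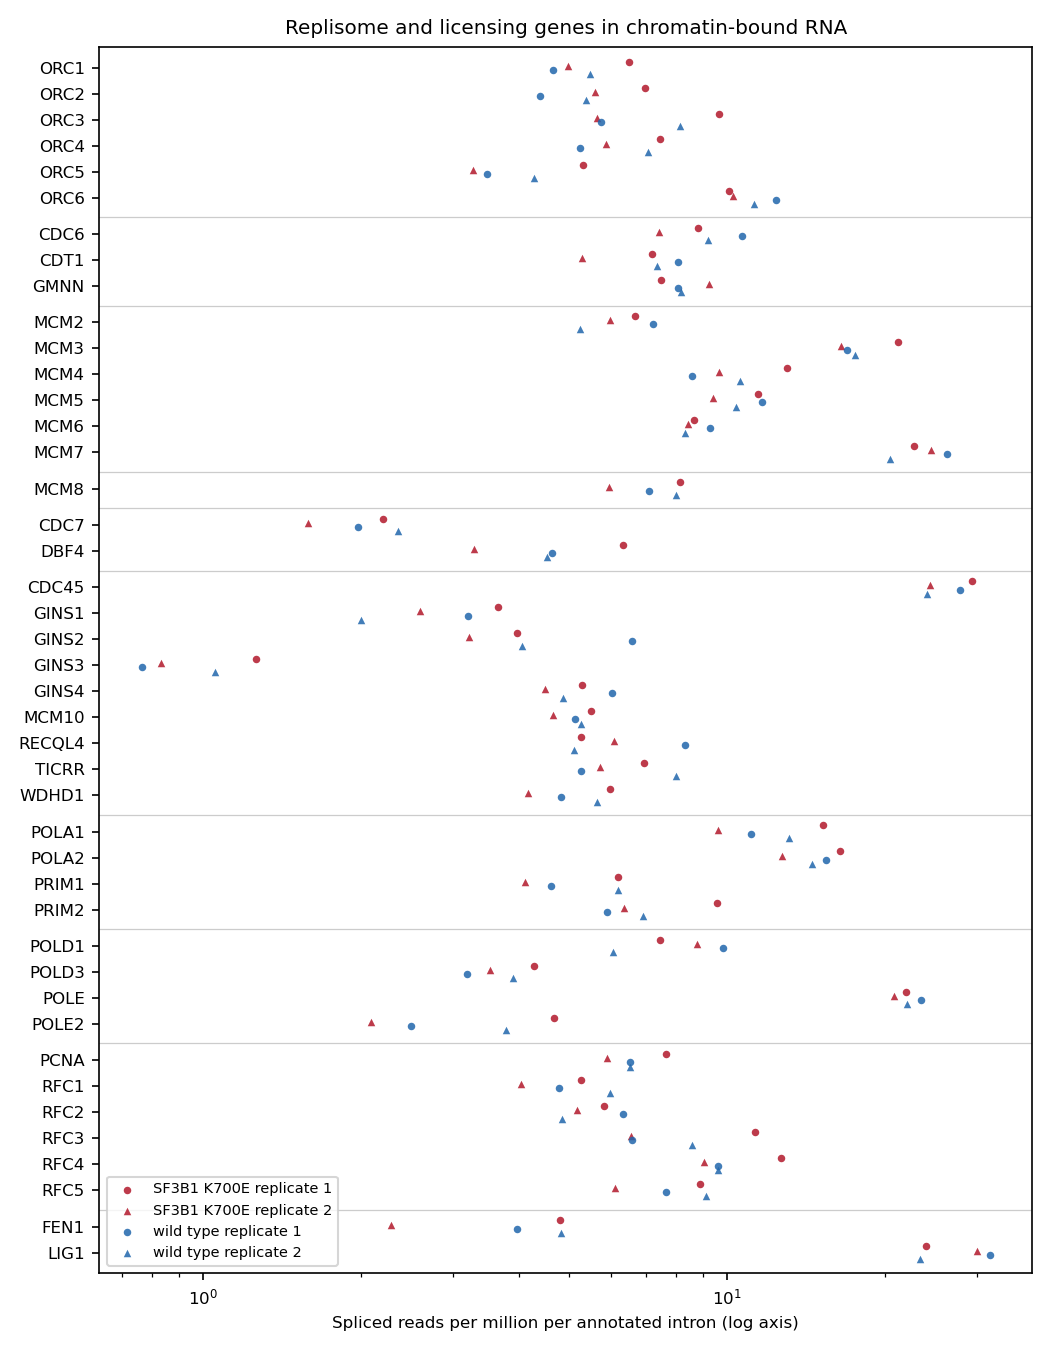
CPM per annotated intron (x axis, log scale) of the 43 genes, grouped by role, with a point for each SF3B1 K700E library (red) and each wild-type library (blue). POLA2 includes reads that a readthrough gene shares, and the genotypes overlap in nearly every row, while genes differ from GINS3 near 1 to LIG1 and CDC45 near 27.

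Per annotated intron, LIG1, CDC45, MCM7 and POLE had the highest levels. LIG1 averaged 26.99 CPM per intron in SF3B1 K700E and 27.5 in wild type, CDC45 26.8 in SF3B1 K700E and 25.9 in wild type, and MCM7 23.6 in SF3B1 K700E and 23.4 in wild type. POLE averaged 21.4 in SF3B1 K700E and 22.7 in wild type. The libraries of neighbours in this order overlapped. GINS3 was lowest, where POLA2 is counted with its shared reads, at 1.05 CPM per intron in SF3B1 K700E and 0.908 in wild type, followed by the kinase CDC7 with 1.89 in SF3B1 K700E and 2.16 in wild type.

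Within the origin recognition complex, the 6 subunits split without any call, 5 fitted above 0 and ORC6 below. ORC2 (ENSG00000115942.8, GRCh38 chromosome 2, 200908973 to 200963680), a core subunit, had 118.6 and 95.0 CPM in SF3B1 K700E, against 74.9 and 91.4 CPM in wild type. Its libraries did not overlap, but the nearest values, 95.0 and 91.4 CPM, lay close together, for a log2 change of 0.36 ± 0.25 (SE; edgeR adjusted p 0.729). ORC6, the smallest and most loosely bound subunit, had 60.6 and 61.6 CPM in SF3B1 K700E, against 74.3 and 67.6 CPM in wild type, a log2 change of -0.22 ± 0.24 (SE; edgeR adjusted p 0.872). ORC1, ORC3, ORC4 and ORC5 ran from 0.11 to 0.18 on the log2 scale with overlapping libraries.

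CDC6 and CDT1, which load the helicase, were lower in both SF3B1 K700E libraries, and neither passed. CDC6 had 96.6 and 81.5 CPM in SF3B1 K700E, against 117.4 and 101.0 CPM in wild type (log2 change -0.29 ± 0.24 SE; edgeR adjusted p 0.783). CDT1 had 64.6 and 47.6 CPM in SF3B1 K700E, against 72.4 and 66.1 CPM in wild type (log2 change -0.31 ± 0.26 SE; edgeR adjusted p 0.806). GMNN, which encodes the CDT1 inhibitor geminin, had 44.9 and 55.5 CPM in SF3B1 K700E, against 48.3 and 49.0 CPM in wild type, with overlap.

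All 6 ring subunits MCM2 to MCM7 overlapped between genotypes, with log2 changes from -0.08 to 0.24. The summed level of the ring was 1287 and 1135 CPM in SF3B1 K700E, against 1220 and 1114 CPM in wild type. MCM4 was at the top, with 207.9 and 154.1 CPM in SF3B1 K700E, against 137.2 and 169.3 CPM in wild type (log2 change 0.24 ± 0.24 SE; edgeR adjusted p 0.857). MCM8, a related helicase that works with MCM9 in recombination, had 146.1 and 107.1 CPM in SF3B1 K700E, against 127.5 and 143.7 CPM in wild type. The kinase genes CDC7 and DBF4 also overlapped, with DBF4 at 69.6 and 36.2 CPM in SF3B1 K700E, against 51.0 and 49.9 CPM in wild type.

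Among the genes that assemble and fire the active helicase, 7 of 8 tested overlapped. GINS2, a GINS subunit, had the lowest log2 change of all members with all libraries, -0.56 ± 0.35 (SE; edgeR adjusted p 0.689). Without wild type replicate 1 it was -0.17, and without SF3B1 K700E replicate 1 FEN1 (-0.92) lay below GINS2 (-0.71). It had 15.9 and 12.9 CPM in SF3B1 K700E, against 26.3 and 16.2 CPM in wild type, from 54 to 86 reads a library. GINS1, another subunit of the same complex, had 21.9 and 15.6 CPM in SF3B1 K700E, against 19.3 and 12.03 CPM in wild type (log2 change 0.26 ± 0.36 SE; edgeR adjusted p 0.915). RECQL4, a helicase-family firing factor, had 105.5 and 121.7 CPM in SF3B1 K700E, against 166.0 and 101.9 CPM in wild type (log2 change -0.24 ± 0.27 SE; edgeR adjusted p 0.875). The high wild-type value was 1 library.

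POLA2, the B subunit of polymerase alpha, had the highest fitted log2 change with all libraries, 0.61 ± 0.58 (SE; edgeR adjusted p 0.835). It was 0.12 without SF3B1 K700E replicate 1, below ORC2 (0.20), and 1.01 without SF3B1 K700E replicate 2. It came from only 23 and 15 reads in SF3B1 K700E, against 8 and 11 in wild type. Nearly all its junction reads also belong to an annotated readthrough gene and were left out of the fit. Those shared reads numbered 1086 and 1025 in SF3B1 K700E, against 850 and 811 in wild type. With them POLA2 had 279.8 and 216.3 CPM in SF3B1 K700E, against 262.2 and 247.1 CPM in wild type, which overlapped. PRIM2, the large primase subunit, had 124.4 and 82.6 CPM in SF3B1 K700E, against 76.7 and 89.9 CPM in wild type (log2 change 0.31 ± 0.27 SE; edgeR adjusted p 0.808). POLA1, the catalytic subunit, had 549.7 and 345.8 CPM in SF3B1 K700E, against 400.7 and 472.9 CPM in wild type, so the SF3B1 K700E libraries lay on both sides of wild type.

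POLE, the leading-strand polymerase, was the best-covered member, with 3515 to 4799 reads a library. It had 1055 and 998 CPM in SF3B1 K700E, against 1125 and 1057 CPM in wild type, a log2 change of -0.09 ± 0.21 (SE; edgeR adjusted p 0.960). The 1055 and 1057 CPM nearly touch, so the lack of overlap rests on a very small gap. RFC3, a clamp-loader subunit, had 90.6 and 52.4 CPM in SF3B1 K700E, against 52.6 and 68.5 CPM in wild type (log2 change 0.24 ± 0.31 SE; edgeR adjusted p 0.905). FEN1, the flap nuclease, has 1 intron and gave 19 and 11 reads in SF3B1 K700E, against 13 and 16 in wild type (log2 change -0.33 ± 0.57 SE; edgeR adjusted p 0.934). LIG1, the ligase, had 647.6 and 809.6 CPM in SF3B1 K700E, against 855.5 and 629.8 CPM in wild type.

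**Figure D2:**
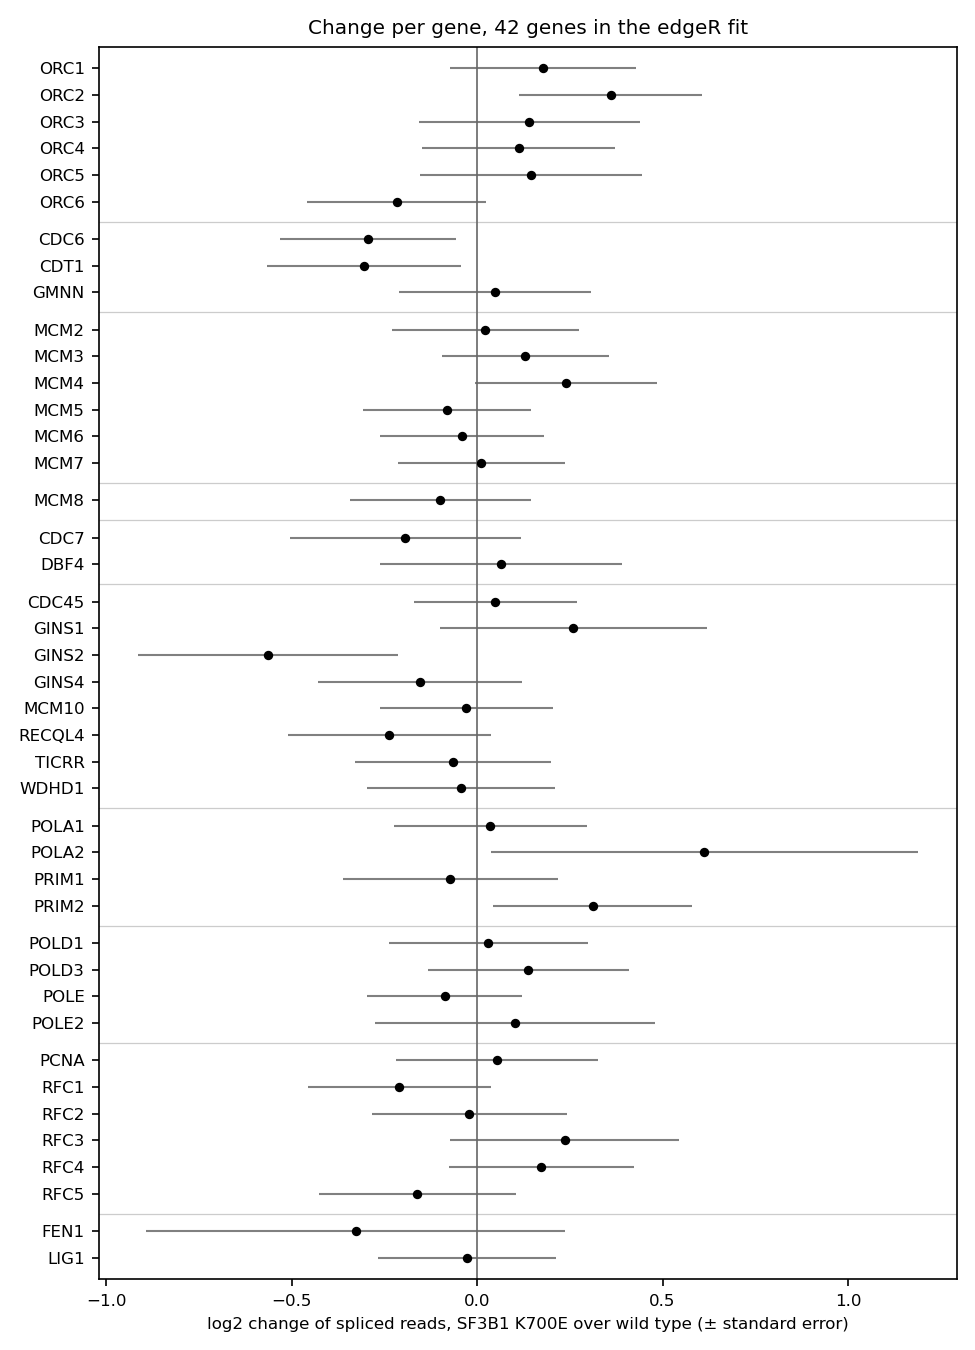
Fitted log2 change of spliced reads, SF3B1 K700E over wild type (x axis), with its standard error as a bar, for the 42 genes in the edgeR fit, grouped by role. GINS2 at -0.56 and POLA2 at 0.61, which rests on 8 to 23 single-gene reads a library, are the ends of the range, and no gene passed.

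Libraries of 1 genotype differed from each other. With SF3B1 K700E replicate 1 set beside wild type replicate 2, the direction was often the same in both genotypes. This crossed pairing was chosen after seeing the data. SF3B1 K700E replicate 1 and wild type replicate 2 had the higher level for 23 of 42 members, and the other library of each genotype for 5. These 28 are 66.7% of members, against 62.8% of all genes tested. The 23 had a median gene length of 49.6 kb and a median transcript GC content of 42.0%, and the 5 had 9.21 kb and 60.7%. Across the 42 members, Spearman's rho with transcript GC was 0.54 for replicate 2 over 1 in SF3B1 K700E and 0.55 for replicate 1 over 2 in wild type, as a description over genes that share these libraries. POLE2, a small subunit of polymerase epsilon, is an example, with 84.3 and 37.6 CPM in SF3B1 K700E, against 44.9 and 68.2 CPM in wild type. Across the same 42 members, rho of the fitted log2 change was 0.46 with gene length and -0.32 with transcript GC. The part of the split between libraries in each gene's change was not tested.

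Related gene lists held no call either. Of 52 further replication genes, 51 were tested and 0 were called, with a median log2 change of 0.11. TIPIN, a fork protection factor, had 24.7 and 24.3 CPM in SF3B1 K700E, against 9.78 and 12.9 CPM in wild type (edgeR adjusted p 0.190). DNA2, a flap nuclease and helicase, had 98.4 and 64.5 CPM in SF3B1 K700E, against 135.7 and 155.4 CPM in wild type (edgeR adjusted p 0.242). These 2 were the only ones in the list with an unadjusted p under 0.05. Of 30 mitosis genes 0 were called, with a median log2 change of 0.11, and CDK1, the mitotic kinase, was the only one with an unadjusted p under 0.05. CDK1 had 73.2 and 51.6 CPM in SF3B1 K700E, against 126.2 and 166.0 CPM in wild type, a log2 change of -1.23 ± 0.27 (SE; edgeR adjusted p 0.0700). With DESeq2 its adjusted p was 0.00701, so the side of 0.05 depended on the tool.

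Splicing of the members was described next, since SF3B1 acts at the 3′ splice site. Junctions outside the annotation took a larger share of member reads in both SF3B1 K700E libraries. That share was 3.05% and 2.88% in SF3B1 K700E, against 2.18% and 2.26% in wild type, with 892 and 875 such reads in SF3B1 K700E, against 497 and 501 in wild type. Counting error alone gave 95% Wilson intervals of 2.86% to 3.25% and 2.69% to 3.07% in SF3B1 K700E, against 1.99% to 2.37% and 2.07% to 2.46% in wild type. The mean difference was 0.744 percentage points (exact permutation p 0.333, the smallest that 2 against 2 libraries allow). Over all genes the share was 3.25% and 2.96% in SF3B1 K700E, against 2.77% and 2.79% in wild type, and whether the members differ from these was not tested.

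All 3 kinds of unannotated junction lay higher in both SF3B1 K700E libraries. An annotated donor joined to a new acceptor took 1.24% and 1.31% of member reads in SF3B1 K700E, against 1.02% and 0.880% in wild type. New pairings of annotated sites, such as exon skips, took 1.06% and 0.838% in SF3B1 K700E, against 0.587% and 0.776% in wild type. New donors took 0.752% and 0.733% in SF3B1 K700E, against 0.573% and 0.605% in wild type. Over all genes, new pairings were also higher in both SF3B1 K700E libraries, with 0.843% and 0.757% in SF3B1 K700E, against 0.671% and 0.682% in wild type. New donors overlapped over all genes, with 1.05% and 0.991% in SF3B1 K700E, against 0.997% and 1.01% in wild type. New acceptors over all genes took 1.36% and 1.21% of reads in SF3B1 K700E, against 1.098% and 1.097% in wild type.

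Of the 40 members with at least 200 annotated reads over the 4 libraries, 14 had a higher unannotated share in both SF3B1 K700E libraries, 1 (PRIM1) had a lower one and 25 overlapped. Among 7695 genes of this depth, 26.5% were higher and 9.71% lower in this way. PRIM1 rested on 4 and 2 unannotated reads in SF3B1 K700E, against 3 and 6 in wild type. Its reads over introns shared with another gene, 149 and 107 in SF3B1 K700E, against 95 and 74 in wild type, were left out. ORC5, an origin recognition subunit, had the widest gap, with 7.74% and 10.1% in SF3B1 K700E, against 3.90% and 3.14% in wild type, from 23 and 23 reads in SF3B1 K700E, against 6 and 6 in wild type. ORC2 had 5.05% and 5.38% in SF3B1 K700E, against 3.16% and 1.62% in wild type. RFC3 had 4.01% and 5.97% in SF3B1 K700E, against 1.15% and 1.72% in wild type. POLA1, with the most unannotated reads, had 133 and 111 of them in SF3B1 K700E, or 5.75% and 6.26%, against 65 and 62 in wild type, or 4.72% and 3.79%. CDC6, CDC7, PRIM2, RECQL4, TICRR, RFC4, RFC5, MCM5, MCM8 and LIG1 were the others that did not overlap. POLE, with 68 and 68 such reads in SF3B1 K700E, had 1.60% and 1.40%, against 1.26% and 1.54% in wild type, with overlap.

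**Figure D3:**
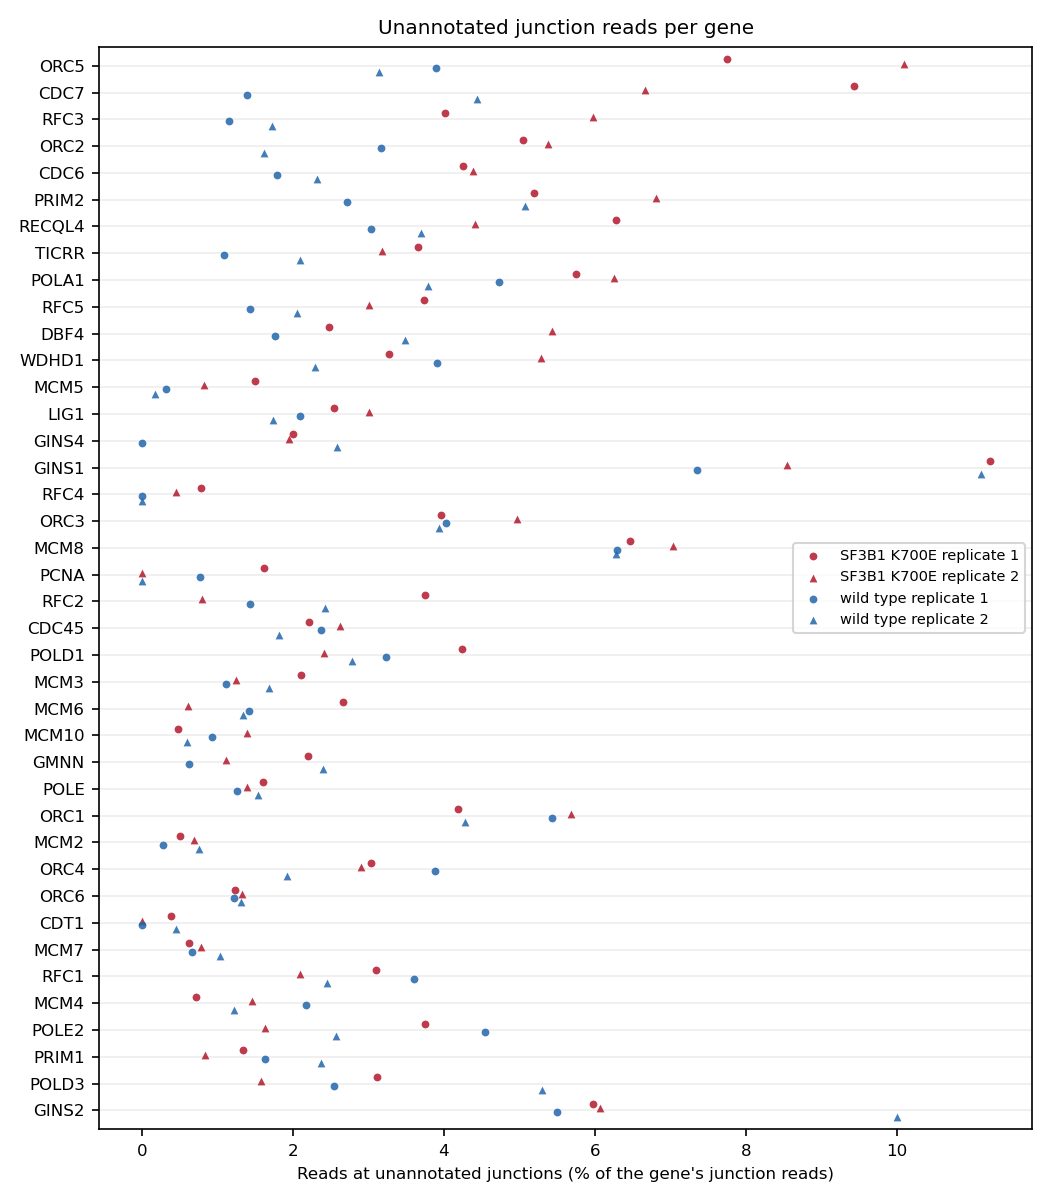
Reads at unannotated junctions as a percent of each gene's junction reads (x axis) for the 40 genes with at least 200 annotated reads, a point for each library, ordered by the difference of the genotype means. ORC5 is at the top with 7.74% and 10.1% in SF3B1 K700E, against 3.90% and 3.14% in wild type, and GINS2 is at the bottom.

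Tests of single junctions called none in the members. Of 115 member junctions in 26 genes that share a donor with another junction, 0 passed the acceptor test and 2 had an unadjusted p under 0.05 (edgeR), against 0.137% called and 3.17% under an unadjusted p of 0.05 among 23366 junctions tested over all genes. limma voom also called 0, with 4 under an unadjusted p of 0.05. Of the 106 that share an acceptor, 0 passed and 2 had an unadjusted p under 0.05 (edgeR), against 0.0087% called and 2.18% unadjusted among 22976, and limma voom called 0 with 4 unadjusted. Among 40 unannotated member junctions in the acceptor test, 13 had higher use in both SF3B1 K700E libraries and 4 lower use. Over all unannotated junctions tested, 24.5% were higher and 14% lower. Acceptor choices were also simulated at this depth, with the common spread of the gene totals rather than a spread fitted to junctions. Each change was placed on the first listed junction of a donor. There, 2.08% of junctions changed by 2 on the log2 scale and 23.1% of those changed by 4 were recovered, over 23138 junctions.

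The sequences shown are those of the clearest exon skips, in POLA1, ORC5 and CDC45, which were chosen after their values were seen. They come from the GENCODE 29 transcripts on GRCh38, in lower case from 5′ to 3′, with a stop codon that falls in frame after a skip in capitals.
POLA1 exon 24: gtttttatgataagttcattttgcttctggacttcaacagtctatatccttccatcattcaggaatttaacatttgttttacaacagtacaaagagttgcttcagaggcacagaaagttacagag
POLA1 exon 23 joined to exon 25, from the last 30 bases of exon 23: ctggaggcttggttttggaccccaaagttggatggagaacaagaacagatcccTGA
ORC5 exon 10: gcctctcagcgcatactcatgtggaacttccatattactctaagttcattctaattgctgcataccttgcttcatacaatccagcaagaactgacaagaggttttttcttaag
ORC5 exon 9 joined to exon 11, from the last 30 bases of exon 9: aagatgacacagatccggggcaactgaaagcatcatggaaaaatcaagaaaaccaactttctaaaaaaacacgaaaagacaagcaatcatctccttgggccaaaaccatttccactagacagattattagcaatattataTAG
CDC45 exon 14 joined to exon 17, from the last 30 bases of exon 14: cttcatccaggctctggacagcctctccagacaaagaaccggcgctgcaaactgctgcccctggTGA

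The lowest p of any member junction was at POLA2 (ENSG00000014138.8, chromosome 11, 65261762 to 65305589). An unannotated exon of 56 nt (65279732 to 65279787) lay between exons 7 and 8 of 18. The join from exon 7 into it had 23 and 27 reads in SF3B1 K700E, against 3 and 7 in wild type, which is 23.7% and 24.1% of the reads from that donor in SF3B1 K700E, against 3.30% and 8.33% in wild type. Its fitted coefficient was 1.43, a natural log relative to all tested junctions of the donor. The unadjusted p was 0.00110 and the adjusted p 0.322 (edgeR). The join out of it into exon 8 had 20 and 12 reads in SF3B1 K700E, against 2 and 6 in wild type, or 21.5% and 12.9% in SF3B1 K700E, against 2.25% and 7.41% in wild type (edgeR adjusted p 1.00). Both sides thus had higher use in both SF3B1 K700E libraries. The annotated join of exons 7 and 8 took 75.3% and 72.3% in SF3B1 K700E, against 95.6% and 89.3% in wild type. A length of 56 nt is not a multiple of 3. These junctions lie also in the readthrough gene.

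MCM3, a subunit of the ring (chromosome 6, 52264009 to 52284881, minus strand), gave the other acceptor with a low p. Its last intron holds an exon that a shorter annotated transcript uses. Exon 16 was joined to it in 23 and 17 reads in SF3B1 K700E, against 7 and 4 in wild type, or 30.7% and 21.0% in SF3B1 K700E, against 10.9% and 6.06% in wild type (unadjusted p 0.0112 and adjusted p 0.864, edgeR). The libraries of the genotypes did not overlap there. The join out of it into exon 17 had 15 and 1 reads in SF3B1 K700E, against 6 and 1 in wild type, which overlap, so the 2 sides differ.

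POLA1, the catalytic subunit of polymerase alpha (ENSG00000101868.10, chromosome X, 24693919 to 24996986), skipped exon 24 of 37, which is 125 nt long (24745418 to 24745542). The skip had 27 and 17 reads in SF3B1 K700E, against 10 and 6 in wild type. Of the reads that enter exon 25, it took 38.0% and 25.4% in SF3B1 K700E, against 17.9% and 10.3% in wild type (unadjusted p 0.0323 and adjusted p 1.00, edgeR). Of the reads that leave exon 23, it took 55.1% and 60.7% in SF3B1 K700E, against 52.6% and 35.3% in wild type (edgeR adjusted p 1.00), a smaller gap. The annotated join into exon 24 had 21 and 9 reads in SF3B1 K700E, against 9 and 10 in wild type. The join out of exon 24 had 42 and 47 reads in SF3B1 K700E, against 45 and 52 in wild type, more than the join into it in every library. The skip would bring the printed TGA in frame after 863 codons, against 1468 in full.

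ORC5 (chromosome 7, 104126341 to 104208047, minus strand) and CDC45 (chromosome 22, 19479459 to 19520612) also skipped exons more often in both SF3B1 K700E libraries, from few reads. In ORC5 the skip of exon 10 (113 nt) had 7 and 8 reads in SF3B1 K700E, against 1 and 1 in wild type. Of the reads into exon 11 it took 30.4% and 29.6% in SF3B1 K700E, against 9.09% and 11.1% in wild type (edgeR adjusted p 1.00). It would bring the printed TAG in frame after 329 of 435 codons. In CDC45, the helicase component, a join from exon 14 to exon 17 leaves out exons of 139 and 84 nt. It had 7 and 13 reads in SF3B1 K700E, against 2 and 3 in wild type, or 12.3% and 18.1% of reads into exon 17 in SF3B1 K700E, against 5.41% and 9.38% in wild type (edgeR adjusted p 1.00). It would bring the printed TGA in frame after 417 of 566 codons.

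**Figure D4:**
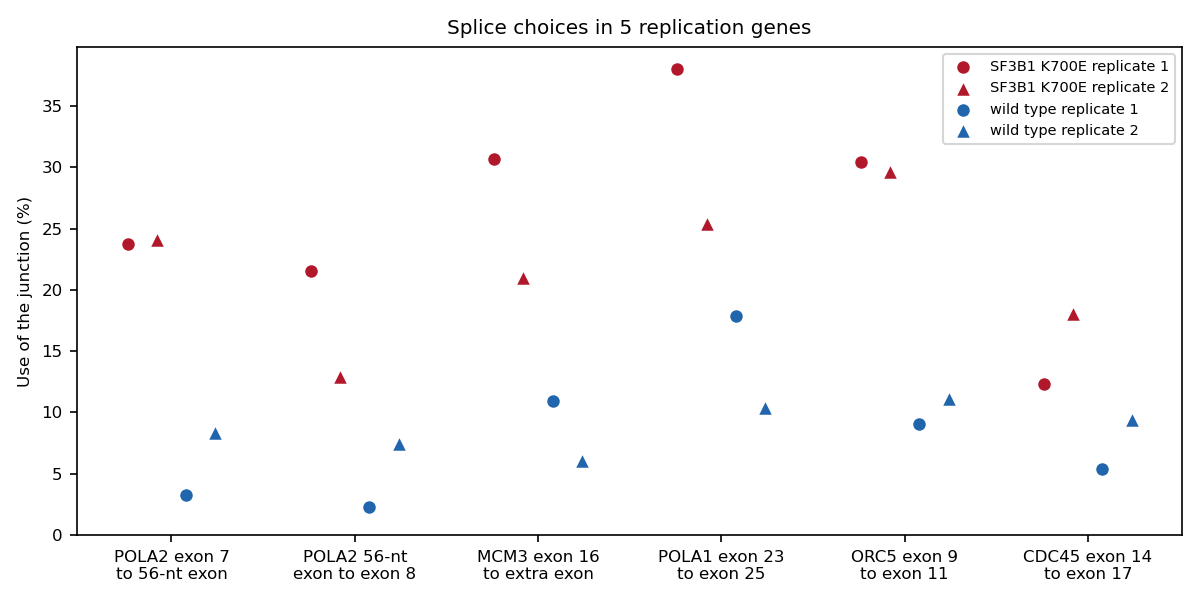
Use of a junction (y axis, percent of reads that share its donor or, for the join out of the POLA2 exon and the skips in POLA1, ORC5 and CDC45, its acceptor) in each SF3B1 K700E library (red, left) and each wild-type library (blue, right). In all 6 columns both red points lie above both blue points, and the columns were chosen for low p or for a clear skip after values were seen.

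Ranked by size alone, the 10 member junctions of at least 20 reads with the largest gap in use and no overlap lay in POLD3, CDC6, ORC5, TICRR, LIG1, POLA1, POLA2 and DBF4. The ranking fixed both the gap and the lack of overlap, so these values are a description. In CDC6 the annotated join of exons 8 and 9 took 54.5% and 50% of reads from its donor in SF3B1 K700E, against 79.2% and 90.0% in wild type, from 12 and 11 reads in SF3B1 K700E, against 19 and 9 in wild type (edgeR adjusted p 1.00). In POLD3, a polymerase delta subunit, the join of exons 8 and 9 took 28.6% and 77.8% in SF3B1 K700E, against 83.3% and 88.9% in wild type, and rested on 2 and 7 reads in SF3B1 K700E, against 5 and 8 in wild type. The join of exons 7 and 8 in the same gene went the other way, with 100% and 83.3% in SF3B1 K700E, against 80.0% and 57.1% in wild type. In TICRR, which encodes the firing factor Treslin, the join of exons 4 and 5 took 75% and 80% in SF3B1 K700E, against 100% in both wild-type libraries, from 7 to 12 reads. In the firing kinase subunit DBF4 the join of exons 10 and 11 took 92.3% and 100% in SF3B1 K700E, against 83.3% and 72.7% in wild type. In LIG1 an unannotated donor joined to exon 7 took 77.8% and 60% of the reads from that donor in SF3B1 K700E, against 81.8% and 100% in wild type, from 4 to 12 reads. Such shares move by many points with 1 read.

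Acceptors 10 to 30 nt upstream of the usual one, the distance best known for SF3B1 mutants, were rare in the members. They numbered 24 in 17 genes, none with 10 reads over the 4 libraries, and the best-covered, in MCM10 and MCM2, had 7 each. In MCM10, a factor that stimulates the helicase, the site 20 nt upstream had 0 and 5 reads in SF3B1 K700E, against 1 and 1 in wild type. In MCM2 the annotated site 19 nt upstream had 2 and 3 reads in SF3B1 K700E, against 1 and 1 in wild type. Summed over the 24 sites there were 17 and 19 reads in SF3B1 K700E, against 7 and 5 in wild type, and 16 sites were seen in SF3B1 K700E alone, 4 in wild type alone and 15 by a single read. Relative to the usual acceptor of the same donors, this was 1.39% and 1.502% in SF3B1 K700E, against 0.813% and 0.564% in wild type (exact permutation p 0.333, the smallest possible). The libraries' Wilson intervals, which cover counting error only, were 0.871% to 2.22% and 0.964% to 2.33% in SF3B1 K700E, against 0.394% to 1.67% and 0.241% to 1.31% in wild type. The same share over all genes was not computed.

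Spliced reads thinned along the longer members in both genotypes. For the 24 members of at least 20 kb with introns in both end parts, each gene was cut into 3 equal lengths, and reads per intron in the last part were set against those in the first. The median log2 ratio was -0.97 and -0.84 in SF3B1 K700E, against -0.88 and -0.92 in wild type (exact permutation p 1), and no gene was above 0 in all 4 libraries. In PRIM2, the longest member at 332 kb, the log2 ratio was -2.37 and -2.98 in SF3B1 K700E, against -2.04 and -2.08 in wild type. In POLA1, 303 kb long, it was -2.03 and -2.20 in SF3B1 K700E, against -2.04 and -1.77 in wild type. MCM3, 20.9 kb long, had -0.24 and 0.50 in SF3B1 K700E, against -0.02 and 0.06 in wild type.

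**Figure D5:**
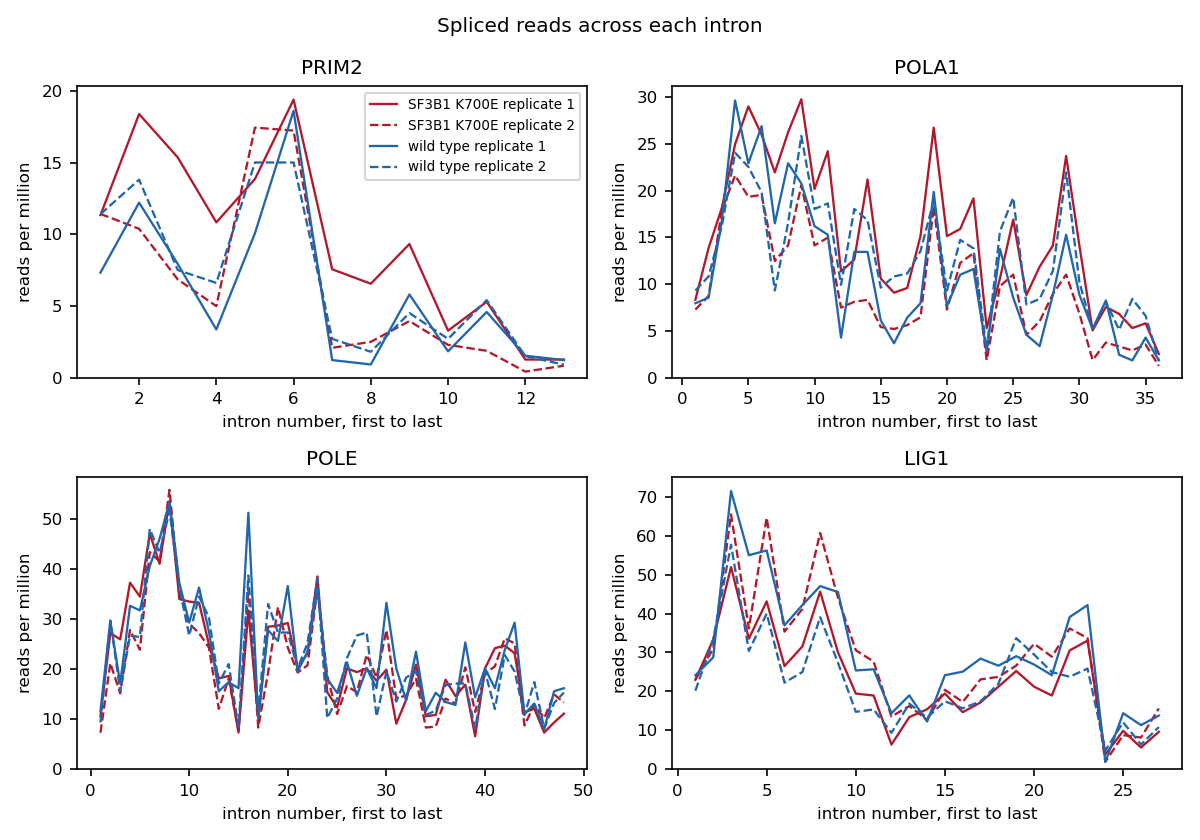
CPM of spliced reads across each intron (y axis) in order from the first to the last intron (x axis) of PRIM2, POLA1, POLE and LIG1, with a line for each SF3B1 K700E library (red) and each wild-type library (blue). Lines of both genotypes run through the same peaks and dips, and reads are fewer toward the last introns, as in POLA1 with log2 ratios of -2.03 and -2.20 in SF3B1 K700E, against -2.04 and -1.77 in wild type.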

How the data were processed

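Chromatin-bound RNA of 4 K562 libraries was measured as splice-junction reads. Per the deposited run logs, the authors aligned reads with STAR 2.7.10a to GRCh38.p12 with GENCODE 27 and 22 junctions. The deposited files hold raw counts of reads per junction, not normalized. Strandedness of the kit is not given in the sources used here, so the splice motif set each junction's strand.

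Uniquely mapped reads over junctions of the main chromosomes were assigned with GENCODE 29. Reads over introns of 1 gene were summed per gene, filtered with filterByExpr, scaled by TMM and tested with edgeR 4.0.16 in R 4.3.3 (genotype as the only term, threshold 0.05). CPM are these sums scaled in the same way. The standard error is the absolute log2 change divided by the square root of F. Acceptor choice (junctions sharing a donor) and donor choice (sharing an acceptor) were tested with diffSpliceDGE on canonical junctions of at least 10 reads over the 4 libraries. Exon numbers follow the protein-coding basic transcript with the most reads. DESeq2 1.42.0 and limma 3.58.1 were alternatives. Shares were compared by an exact 2-sided permutation test over 6 assignments. On simulated counts with known changes, the gene test recovered 25.7% of genes changed by 1 and 94.4% of those changed by 2 on the log2 scale, over 10634 genes. The common biological variation was 21.7%.

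Values are given for members that pass, the 6 highest and 6 lowest by log2 change, and the 10 junctions of at least 20 reads with the largest gap in use and no overlap. Other named items were chosen after their values were seen. The members and lists were chosen with earlier results of these data known. PCR reads carry no molecular identifiers. Some sequences at the POLA2 and MCM3 junctions are not reported here.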

Additional observations from a re-analysis of the deposited data

How the results depend on the processing

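Under every alternative run, 0 members passed the gene, acceptor or donor test. The count over all genes, 101, was 217 with DESeq2 and 0 to 317 with 1 library left out: SF3B1 K700E replicate 1 (310 called) or 2 (0 called), or wild type replicate 1 (274 called) or 2 (317 called). These fits assume that the lone library varies like the other genotype, and the cause was not tested. Over all junctions, the 32 acceptors were 15 with limma voom, 19 with the replicate block and 5 to 12 with 1 library left out. The 2 donors were 0 with the replicate block, with multiply mapped reads added and in each fit with 1 library left out. Deviations of same-numbered libraries correlated at -0.21, so the numbers are not taken to pair the samples. With crossed numbers as the block, chosen after seeing the data, 460 genes were called. The member share of reads differed by 0.00 points, and by -0.050 to 0.058 with 1 library left out, with a change of sign. The unannotated share differed by 0.744 points, and by 0.659 to 0.829 with 1 library left out, 0.288 over junctions of at least 10 reads and 0.583 without POLA1 and POLA2. The upstream acceptor share differed by 0.758 points, by 0.634 to 0.883 with 1 library left out and by 0.468 with a window of 1 to 50 nt. Among members, the sign with 1 library left out was checked only for those named as highest and lowest by log2 change. The other members were not checked in this way, so their signs may also depend on 1 library. Among the members checked, some fitted log2 changes turned sign. These were PRIM2 (-0.0048 to 0.59) and RFC3 (-0.20 to 0.59) without SF3B1 K700E replicate 1, and FEN1 (-0.92 to 0.14) without SF3B1 K700E replicate 2. RECQL4 (-0.52 to 0.16) turned without wild type replicate 1, and GINS1 (-0.020 to 0.64) without wild type replicate 2. The natural-log coefficient of the LIG1 donor (-0.061 to 0.22) also turned sign without wild type replicate 2. CDK1 passed with DESeq2, with the crossed block and without replicate 1 of either genotype. DNA2 passed with the crossed block and without SF3B1 K700E replicate 1. Junctions of under 30 reads limit every statement on single splice choices.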

Other observations

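Some unannotated exons of the members were used in both genotypes, with libraries that overlapped. Between members' annotated sites, 94 pairs of junctions framed an unannotated exon of 20 to 300 nt, in 25 genes, and 19 of these, in 13 genes, had at least 5 reads on each side. In MCM8 an exon of 91 nt between exons 12 and 13 (chromosome 20, 5977289 to 5977379) took 12.5% and 36.7% of reads from exon 12 in SF3B1 K700E, against 28.0% and 40.0% in wild type. In LIG1, an exon of 267 nt between exons 6 and 7 (chromosome 19, 48151468 to 48151734) took 6.09% and 6.38% of reads into exon 7 in SF3B1 K700E, against 6.57% and 5.06% in wild type. In POLD1, the catalytic subunit of polymerase delta, an exon of 84 nt between exons 17 and 18 (chromosome 19, 50409941 to 50410024) took 10.8% and 3.85% of reads from exon 17 in SF3B1 K700E, against 11.1% and 5.88% in wild type. These exons were chosen after their values were seen, and each rests on 2 to 12 reads a library and side.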
